A study of Mus musculus with 18 samples.

Results

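Keratin genes encode the subunits of the intermediate filaments of epithelial cells. The members described here were all protein-coding genes on chromosomes 1 to 19 of the GENCODE annotation of mm10 whose symbol is Krt followed by a number and at most 1 letter, and 53 of 20807 protein-coding genes met that rule. They lay on 2 chromosomes only, 27 in a run of 1037 kb on chromosome 11 (Krt222 first, Krt42 last) and 26 in a run of 685 kb on chromosome 15 (Krt80 first, Krt18 last). Krt74 carries such a symbol but is annotated as a pseudogene and was left out.

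Lamin B1 and H3K9me3 were profiled by ChIP-Seq in whole livers of male C57BL6 mice aged 3 months (young) and 21 months (old), with 2 replicates for each antibody and age. Foxa2 was profiled in livers of male Zmpste24 mutants (Zmpste24 KO) and wild-type littermates (WT) aged 12 weeks, with 3 replicates per genotype. Zmpste24 encodes the protease that matures prelamin A, and its loss is used as a model of premature ageing. The lists used here hold the positions of called regions from merged replicates, so that no spread between livers and no test between ages or genotypes could be had, and every value below is a description of 6 merged lists.

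Keratins pair as heteropolymers of an acidic type I and a basic type II subunit. In the mouse the type I genes stand together on chromosome 11 and the type II genes on chromosome 15, except that the type I gene Krt18 lies beside its type II partner Krt8 at the end of the chromosome 15 cluster. Hepatocytes make Krt8 and Krt18, bile duct cells add Krt7 and Krt19, and most of the other members are known from stratified epithelia such as the epidermis, from the inner root sheath or from the hair shaft. Lamin B1 lines the inner face of the nuclear envelope, where lamina-associated domains hold mostly inactive chromatin, and H3K9me3 marks heterochromatin. Foxa2 is a forkhead pioneer factor of the hepatocyte. RNA was not measured in these lists, so "silent" is said of keratin genes here only from what is known of their tissues.

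The keratin calls differed mainly between the ages. In young livers the start of only 4 of the 53 genes lay in a lamin B1 domain, beside 38.0% of all protein-coding genes. In old livers it was that of 52, beside 65.7% of all genes, so the share rose over all genes too. Outside that pattern stood the hepatocyte pair Krt8 and Krt18, which lay in a lamin B1 domain at both ages and in no H3K9me3 region at either age, and Krt222, Krt24 and Krt6b.

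Sequences are shown first for the 3 Foxa2 sites that lay nearest to keratin genes, because no keratin gene body held a site and these are the loci the Foxa2 comparison turns on. The central 300 bases of each are given on the forward strand of GRCm38.p6, with matches to the forkhead core TGTTTAC, searched on both strands, in capitals. The first site was called in both genotypes (the WT call is printed, chr11:99475048-99475347), the second in WT only (chr15:101960576-101960875) and the third in Zmpste24 KO only (chr15:101343062-101343361).
Foxa2 site near Krt23: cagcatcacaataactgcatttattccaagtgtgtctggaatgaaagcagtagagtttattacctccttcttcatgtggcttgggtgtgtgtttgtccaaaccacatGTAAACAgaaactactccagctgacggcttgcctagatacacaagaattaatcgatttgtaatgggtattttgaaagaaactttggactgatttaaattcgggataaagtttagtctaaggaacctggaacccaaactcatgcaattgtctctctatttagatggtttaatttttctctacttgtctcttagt
Foxa2 site between Krt78 and Krt8: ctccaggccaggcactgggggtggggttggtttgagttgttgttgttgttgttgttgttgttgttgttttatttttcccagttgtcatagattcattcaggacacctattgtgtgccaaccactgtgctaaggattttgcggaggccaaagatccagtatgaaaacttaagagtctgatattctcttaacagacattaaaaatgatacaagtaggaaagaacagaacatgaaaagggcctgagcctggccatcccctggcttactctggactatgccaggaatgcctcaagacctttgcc
Foxa2 site near Krt80: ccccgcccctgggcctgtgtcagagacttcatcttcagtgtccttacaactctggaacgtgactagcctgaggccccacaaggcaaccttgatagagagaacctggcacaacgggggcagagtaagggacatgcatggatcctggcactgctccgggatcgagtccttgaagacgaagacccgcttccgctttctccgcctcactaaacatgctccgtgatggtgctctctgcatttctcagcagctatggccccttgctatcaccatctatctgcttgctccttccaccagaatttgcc
The site near Krt23 held 1 match, written GTAAACA because the core lies on the reverse strand. No match lay in the other two, over their whole called length of 1795 and 1500 bp. Among all sites of chromosomes 1 to 19, the core was present within 27.8% of WT and 23.4% of Zmpste24 KO sites, and in the central 300 bases of 14.0% and 11.2%.

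Promoter windows from RefSeq (GRCm38.p6, from 250 bases before to 50 bases after a gene start, on the strand of the gene) were at hand for 36 of the 53 keratin genes. They are shown for the hepatocyte pair Krt8 (chr15:102004293-102004592, reverse strand) and Krt18 (chr15:102027966-102028265, forward strand), for the bile duct gene Krt7 (chr15:101412153-101412452, forward strand) and for Krt26 of the inner root sheath (chr11:99337916-99338215, reverse strand), so that genes with different domain calls can be compared. Capitals mark the TATA word TATAAA, searched on both strands.
Krt8 promoter: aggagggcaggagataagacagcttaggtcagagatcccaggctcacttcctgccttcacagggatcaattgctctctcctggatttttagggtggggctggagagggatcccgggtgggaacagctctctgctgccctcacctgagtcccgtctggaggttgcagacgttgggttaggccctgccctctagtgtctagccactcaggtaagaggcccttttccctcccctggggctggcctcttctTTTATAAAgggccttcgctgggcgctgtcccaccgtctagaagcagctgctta
Krt18 promoter: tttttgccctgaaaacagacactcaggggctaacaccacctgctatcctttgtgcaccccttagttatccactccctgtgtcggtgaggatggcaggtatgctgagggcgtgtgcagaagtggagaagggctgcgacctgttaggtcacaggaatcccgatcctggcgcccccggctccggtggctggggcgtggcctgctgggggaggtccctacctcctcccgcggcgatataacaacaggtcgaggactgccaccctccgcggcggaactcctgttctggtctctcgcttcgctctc
Krt7 promoter: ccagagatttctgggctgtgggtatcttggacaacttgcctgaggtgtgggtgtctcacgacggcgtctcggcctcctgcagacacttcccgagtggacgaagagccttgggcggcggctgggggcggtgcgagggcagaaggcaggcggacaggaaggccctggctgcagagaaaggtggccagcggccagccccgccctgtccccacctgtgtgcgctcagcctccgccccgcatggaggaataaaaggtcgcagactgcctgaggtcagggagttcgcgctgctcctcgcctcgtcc
Krt26 promoter: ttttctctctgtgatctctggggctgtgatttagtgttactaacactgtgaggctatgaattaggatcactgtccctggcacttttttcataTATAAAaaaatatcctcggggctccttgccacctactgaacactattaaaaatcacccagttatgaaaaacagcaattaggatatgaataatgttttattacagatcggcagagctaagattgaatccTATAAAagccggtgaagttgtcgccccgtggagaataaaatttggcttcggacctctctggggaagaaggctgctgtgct
The Krt8 window held the word on both strands, in overlap, and the Krt26 window held it as well. It was in neither the Krt18 nor the Krt7 window. Of 37 keratin promoter windows, 19 (51.4%) held TATAAA on either strand and 17 (45.9%) on the strand of the gene, beside 13.6% and 8.32% of all 31396 windows in the RefSeq table. The forkhead core TGTTTAC was in 0 of the 37 and in 3.71% of all windows. GC content over the keratin windows ranged from 39.7% to 66.3% with a median of 48.7%, below the median of 53.0% over all windows. The GC content was 66.3% in Krt7, 61.3% in Krt18 and 58.0% in Krt8, and members of stratified epithelia reached similar values, with 62.0% in Krt79 and 58.3% in Krt78. The Krt7 and Krt18 windows held 21 and 17 CpG dinucleotides and the Krt8 window 6, against a keratin median of 5. The Krt26 window had a GC content of 41.3% and 6 CpG. No entry was found for Krt19.

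The first question was which keratin gene starts lay in a called lamin B1 domain at each age. In the young list, 4 of 53 keratin gene starts (7.55%) lay in a lamin B1 domain, beside 38.0% of all protein-coding genes. In the old list this was 52 of 53 (98.1%), beside 65.7% of all genes. The share of all protein-coding genes was thus also higher in the old list, but keratin genes stood below it in young livers and above it in old livers. By bases the domains covered 19.5% (young) and 38.8% (old) of chromosomes 1 to 19. Gene starts thus lay in called domains more often than bases did, and a call alone does not show inactive chromatin. A start in an old domain only was called for 48 keratin genes (90.6%, beside 32.2% of all genes), in a young domain only for 0 (beside 4.49%), in both lists for 4 (beside 33.5%) and in neither for 1 (beside 29.8%). Every keratin gene start called in young livers was therefore called in old livers too.

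These genes are neighbours, and their counts rest on a handful of domain calls. The 4 young starts came from 2 domains. One extended over chr11:99200001-99320000 (120 kb, 3 protein-coding starts) and held Krt222 and Krt24, the other over chr15:101970001-102560000 (590 kb, 26 protein-coding starts) and held Krt8 and Krt18. The 52 old starts came from 4 domains. On chromosome 11 these were chr11:98260001-99580000 (1320 kb, 12 keratin starts of 50 protein-coding starts) and chr11:99960001-103550000 (3590 kb, 15 of 135). On chromosome 15 they were chr15:96900001-101630000 (4730 kb, 11 of 121) and chr15:101690001-102580000 (890 kb, 14 of 38). Both longer domains were among the longest of the old list, at rank 20 and rank 12 of 1519, and keratin genes made up a minor part of the genes in each. The 53 genes are therefore not independent observations of a condition.

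**Figure D1:**
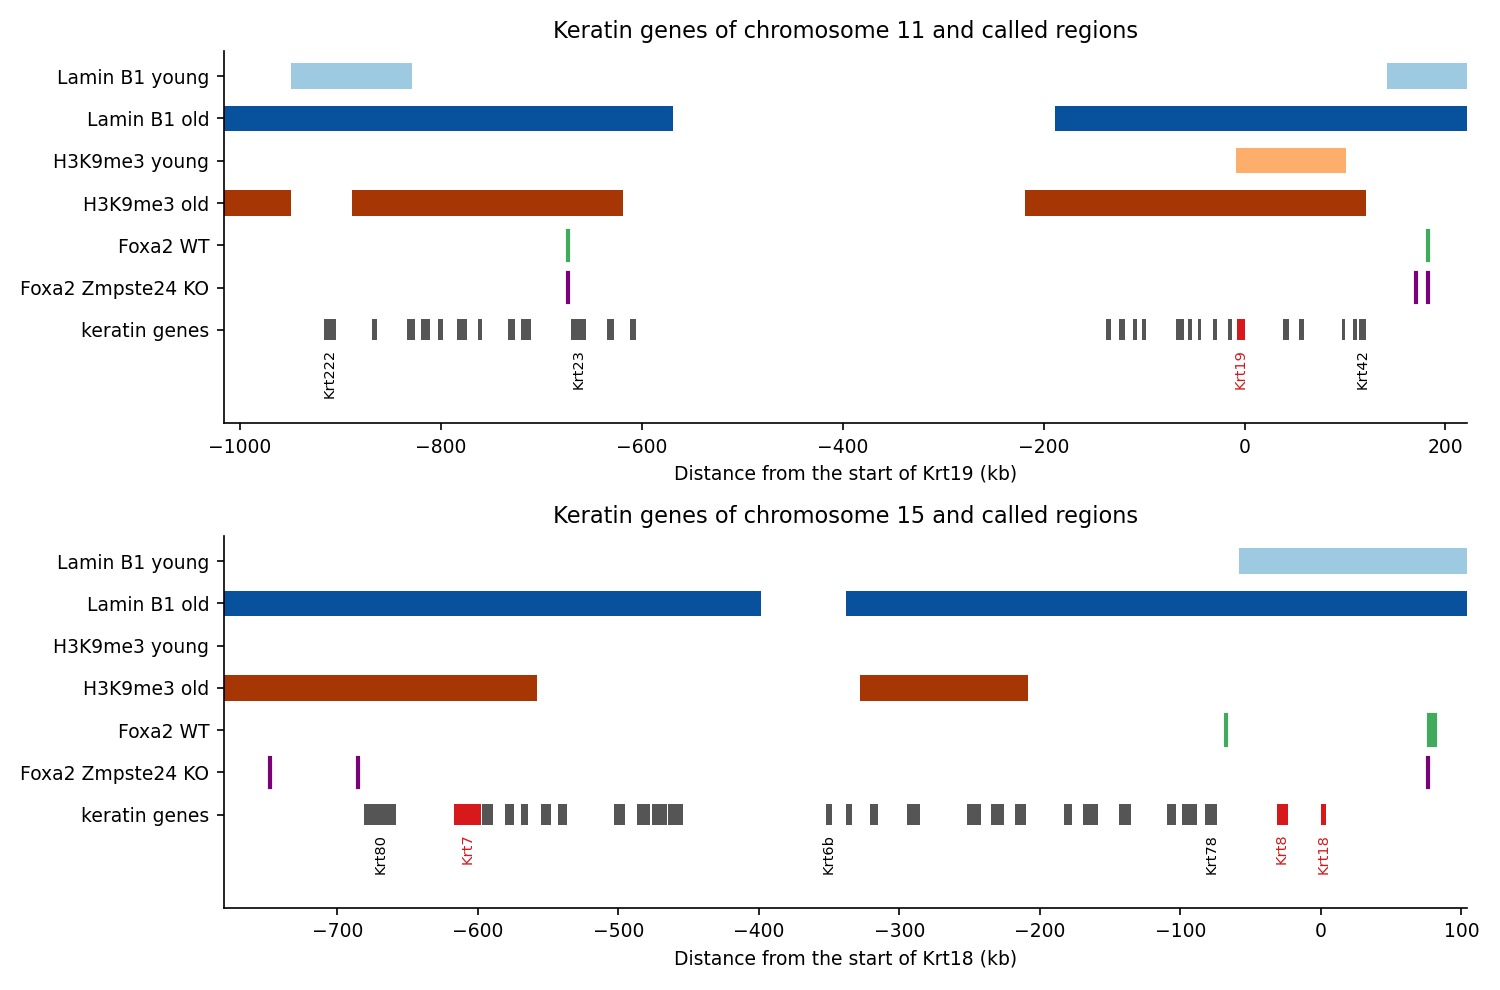
Called regions along the keratin clusters of chromosome 11 (upper panel) and chromosome 15 (lower panel), drawn to scale against the distance in kb from the start of Krt19 or Krt18. Bars are lamin B1 and H3K9me3 regions of merged young or old livers, thin marks are Foxa2 sites drawn wider than they are, and grey boxes are keratin gene bodies with the liver keratins in red; lamin B1 lay over 8.41% (chromosome 11) and 9.06% (chromosome 15) of the clusters in young livers, against 63.4% and 91.2% in old ones.

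The young domains reached only one end of each cluster, at Krt222, Krt24 and part of Krt25 on chromosome 11 and at Krt8 and Krt18 on chromosome 15. Between the young domains a gap of 970 kb on chromosome 11 held 66 protein-coding starts, 25 of them keratin genes, and a gap of 1210 kb on chromosome 15 held 38 starts, 24 of them keratin genes. By bases, the share of the chromosome 11 cluster in a lamin B1 domain was 8.41% in young livers and 63.4% in old ones. On chromosome 15 it was 9.06% and 91.2%. The same shares for chromosomes 1 to 19 were 19.5% and 38.8%. In the 1 Mb before and after the chromosome 11 cluster young domains covered 71.0% and 88.0%. Before and after the chromosome 15 cluster they covered 17.0%, below the share for chromosomes 1 to 19, and 58.0%. In the old list the same flanks were covered to 97.3%, 100%, 100% and 88.0%.

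No window of 10 kb in either cluster lay in a young lamin B1 domain alone. Of 104 windows on chromosome 11, 9 were in a domain at both ages, 57 in old livers only and 38 at neither age. Of 70 windows on chromosome 15 the counts were 7, 57 and 6. The uncalled stretch of chromosome 11 in old livers was a gap of 380 kb between Krt40 and Krt33a that held 34 protein-coding starts, 0 of them keratin genes and 17 of them genes of keratin-associated proteins (Krtap), the matrix proteins that embed hair keratin filaments. On chromosome 15 it was a gap of 60.0 kb around Krt6b, a wound-induced keratin of stratified epithelia and the only keratin gene in a lamin B1 domain at neither age.

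H3K9me3 was called over fewer keratin genes than lamin B1 in old livers. Its regions held the start of 4 keratin genes in young livers (7.55%, beside 13.6% of all genes) and of 35 in old livers (66.0%, beside 25.7%). The mark was called in old livers only for 31 keratin genes (58.5%, beside 18.2% of all genes), at both ages for 4 (beside 7.45%), in young livers only for 0 (beside 6.19%) and at neither age for 18 (34.0%, beside 68.1%). As for lamin B1, no keratin gene was called in the young list alone. The H3K9me3 lists held 2784 (young) and 2496 (old) regions, fewer than the study counts, so a missing call carries an added doubt.

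The clusters differed in the extent of the mark. On chromosome 11 it was called at 4 of 27 gene starts in young livers (14.8%) and 25 in old livers (92.6%). On chromosome 15 it was called at 0 of 26 in young livers and 10 in old livers (38.5%). The shares of all protein-coding genes were 13.6% and 25.7%, so the young count on chromosome 11 lay near the share of all genes. A region of 110 kb, chr11:100140001-100250000, supplied all 4 young starts, those of the bile duct keratin Krt19, of the palm and sole keratin Krt9, of the basal layer keratin Krt14 and of the stress keratin Krt16. The old calls came from 2 regions on each chromosome, chr11:99260001-99530000 (270 kb, 10 keratin starts), chr11:99930001-100270000 (340 kb, 15), chr15:100680001-101470000 (790 kb, 5) and chr15:101700001-101820000 (120 kb, 5). The 110 kb region of young livers lay inside the 340 kb region of old livers. By bases, H3K9me3 covered 10.6% and 58.8% of the chromosome 11 cluster in young and old livers and 0% and 35.4% of the chromosome 15 cluster, beside 24.0% and 25.7% of chromosomes 1 to 19.

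Old H3K9me3 regions and old lamin B1 domains overlapped within the clusters. Of 61 windows of 10 kb in an old H3K9me3 region on chromosome 11, 58 (95.1%) were also in an old lamin B1 domain, and on chromosome 15 all 25 of 25 were. Inside an old lamin B1 domain lay 66 of the 104 windows of chromosome 11 and 64 of the 70 of chromosome 15. All 35 keratin starts in an old H3K9me3 region lay in an old lamin B1 domain, as did 52 of the 53 keratin starts in all, and over all protein-coding genes it was 4574 of 5342 old H3K9me3 starts (85.6%). Both marks together held 66.0% of keratin genes, beside 22.0% of all genes. In young livers no keratin start lay in both marks (beside 4.83% of all genes), since the 4 genes of the young H3K9me3 region lay outside the young lamin B1 domains. A start in both marks in old livers and in neither in young livers was called for 30 keratin genes (56.6%, beside 9.26% of all genes), 20 on chromosome 11 and 10 on chromosome 15.

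**Figure D2:**
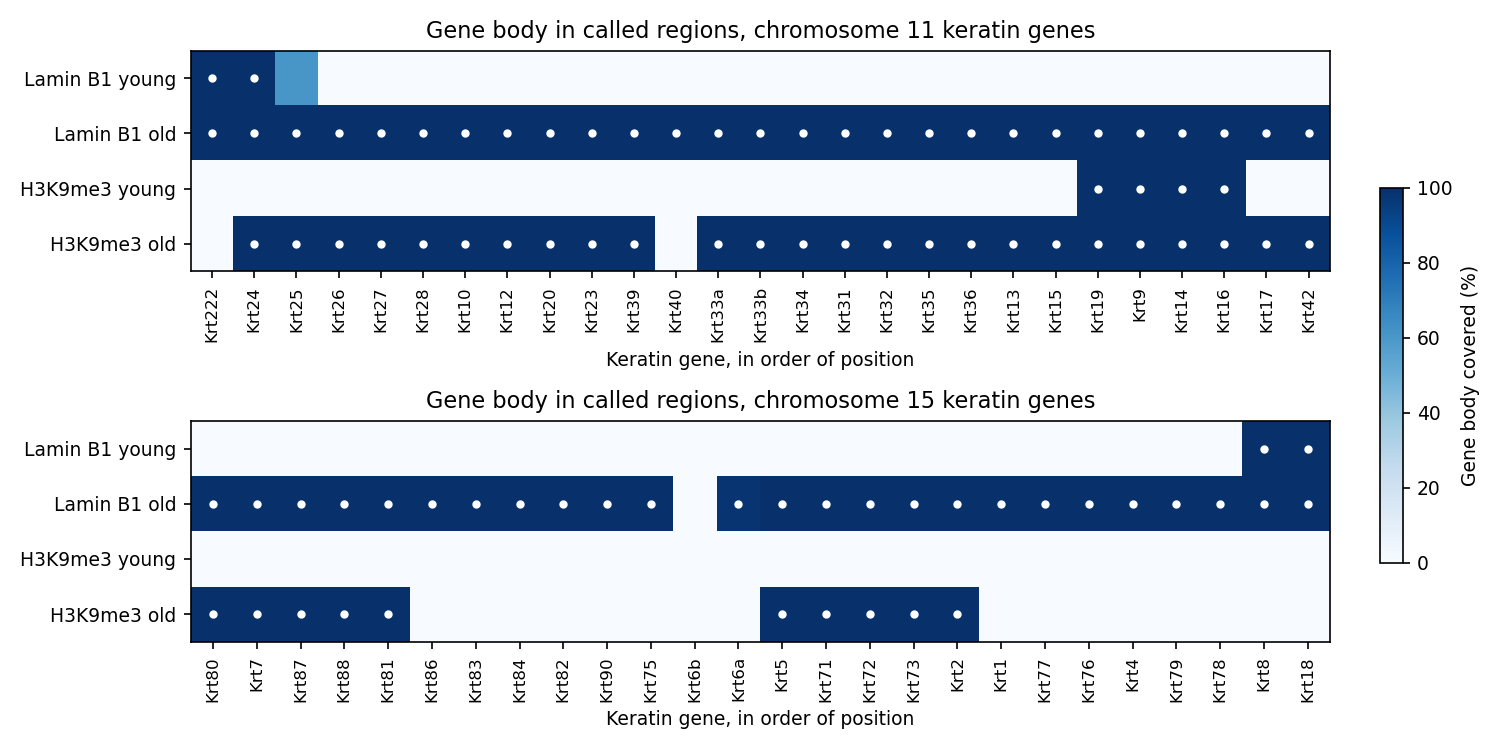
Share of each keratin gene body (colour, 0 to 100%) in the called regions of the 4 merged lists (rows), with genes in order of position on chromosome 11 (upper panel) and chromosome 15 (lower panel) and a white dot where the gene start lay in a region. The old lamin B1 row is filled for every gene but Krt6b, the young rows are filled for 4 genes each, and Krt25 is the only body covered in part in the young lamin B1 row, at 60.3%.

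Gene bodies gave the same picture as gene starts, because the regions are long beside keratin genes, whose median length was 6.59 kb against 17.6 kb over all protein-coding genes. The whole body lay in a domain for 4 genes in young lamin B1 (beside 34.6% of all genes), 51 in old lamin B1 (beside 62.4%), 4 in young H3K9me3 (beside 10.5%) and 35 in old H3K9me3 (beside 22.3%). Any base of the body lay in a domain for 5 genes in young lamin B1 (beside 40.9% of all genes), 52 in old lamin B1 (beside 68.3%), 4 in young H3K9me3 (beside 17.4%) and 35 in old H3K9me3 (beside 31.2%). Krt25 of the inner root sheath crossed the end of a young domain, with 60.3% of its body inside and its start outside. Krt6a, the close copy of Krt6b, crossed the start of an old domain, with 97.9% of its body inside. The median body coverage of keratin genes in the order young lamin B1, old lamin B1, young H3K9me3 and old H3K9me3 was 0%, 100%, 0% and 100%, and over all protein-coding genes it was 0%, 100%, 0% and 0%.

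Krt8 and Krt18, the filament pair of the hepatocyte, differed in their young lamin B1 call from the silent members around them. Krt8 (ENSMUSG00000049382.10, chr15:101996698-102004482, reverse strand) and Krt18 (ENSMUSG00000023043.7, chr15:102028180-102032027, forward strand) are transcribed away from each other from starts 23.7 kb apart. Both lay in a lamin B1 domain at each age. The young domain held 26 protein-coding starts, of which 2 were keratin genes. In the 1 Mb to the right of the cluster, 27 of 37 protein-coding starts lay in a young domain. In young livers the Krt8 start lay 34.5 kb and the Krt18 start 58.2 kb inside the domain of 590 kb, in old livers 314 kb and 338 kb inside the domain of 890 kb. The left end of the domain thus lay between Krt78 and Krt8 in young livers and between the starts of Krt6b and Krt6a in old livers, so that 12 further keratin genes lay in the old domain.

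In these lists, which held fewer regions than the study counts, no H3K9me3 was called at the pair. Nor was it called at 14 of the other 24 keratin genes of chromosome 15, among them the nearest, Krt78 and Krt79. The nearest region was 864 kb from Krt8 and 888 kb from Krt18 in young livers and 184 kb and 208 kb from them in old livers. Of the other 24 keratin genes of chromosome 15, 0 had a start in a young lamin B1 domain and 23 had one in an old domain. A lamin B1 call at both ages without H3K9me3 was also present at Krt222, a keratin-like gene at the left end of the chromosome 11 cluster, and at 22.4% of all protein-coding genes (4655), so that 3 of 53 keratin genes shared a state that is common in the genome.

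The bile duct keratins stood with the silent members in lamin B1. Krt7 (ENSMUSG00000023039.17, chr15:101411043-101430313, forward strand) lay 559 kb from the nearest young lamin B1 domain and inside the old domain of 4730 kb, 219 kb from its end. It lay 271 kb from the nearest young H3K9me3 region and inside an old one of 790 kb. Krt19 (ENSMUSG00000020911.14, chr11:100140810-100148665, reverse strand) lay 141 kb from the nearest young lamin B1 domain and inside the old domain of 3590 kb. It lay in an H3K9me3 region at both ages. Chromatin came from whole liver, in which bile duct cells and hepatocytes cannot be told apart.

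At the ends of the clusters, Krt222 lay in a lamin B1 domain at both ages with no H3K9me3, and Krt24, a keratin of differentiated epidermis, in a lamin B1 domain at both ages with H3K9me3 in old livers only. Krt42 at the other end of the chromosome 11 cluster and Krt80 at the left end of the chromosome 15 cluster lay in both marks in old livers only. Krt26, Krt27 and Krt28 of the inner root sheath stood for the 48 genes with lamin B1 in old livers only, each with 0% of its body covered in young and 100% in old livers. For H3K9me3 the same values were found at Krt24, Krt25 and Krt26, the first by position of 31 genes that could not be ranked. Krt40 of the hair shaft was the only chromosome 11 member with lamin B1 in old livers only and no H3K9me3, whereas 13 members on chromosome 15 had this state.

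By the tissue in which the members are known, every group had more old than young lamin B1 starts, as all protein-coding genes did (38.0% and 65.7%). The counts in young and old livers were 2 and 6 of 6 keratins of simple epithelia, 1 and 20 of 21 of stratified epithelia, 0 and 7 of 7 of the inner root sheath, 0 and 15 of 15 of the hair shaft and 1 and 4 of 4 with no role assigned. H3K9me3 was called at 1 and 4 of 6, 3 and 12 of 21, 0 and 7 of 7, 0 and 10 of 15 and 0 and 2 of 4 in the same order. Over all protein-coding genes it was called at 13.6% and 25.7%, and some of these small counts lie near those shares. The inner root sheath keratins, of which 4 are neighbours on chromosome 11 and 3 on chromosome 15, were thus the only group called in both marks for every member in old livers. Since genes of 1 role are neighbours, role and position cannot be told apart.

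**Figure D3:**
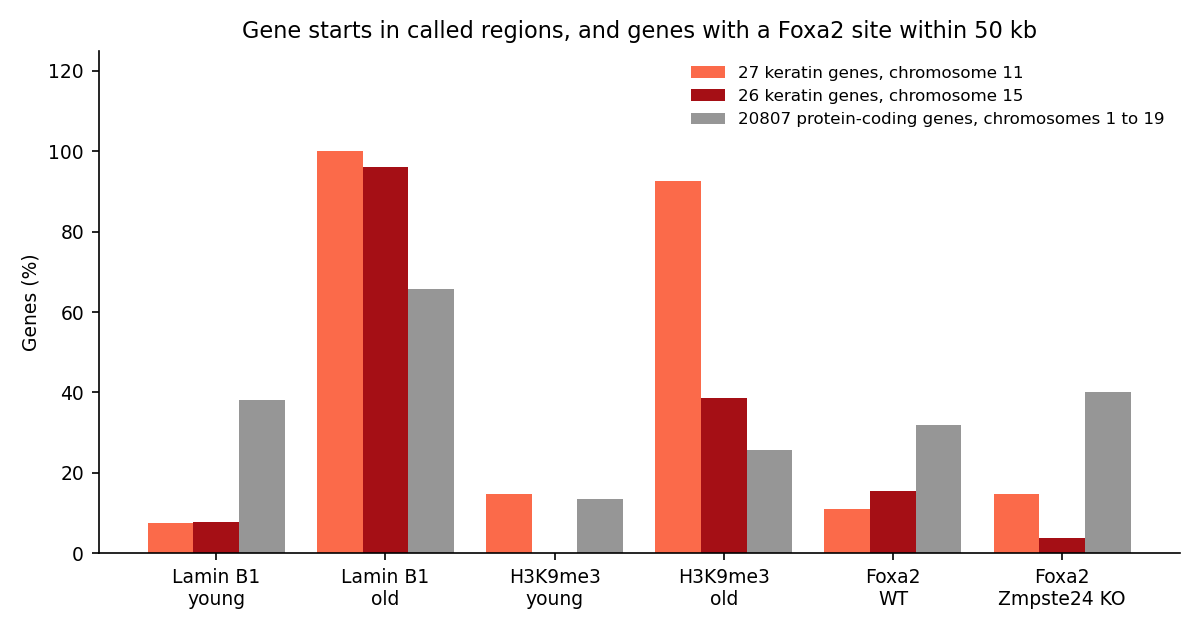
Share of genes in percent (vertical axis, bars from 0) whose start lay in a called lamin B1 or H3K9me3 region, and whose body lay within 50 kb of a Foxa2 site, for 27 keratin genes of chromosome 11, 26 of chromosome 15 and all 20807 protein-coding genes of chromosomes 1 to 19. Lists are of merged replicates, so there are no error bars; the keratin bars stand below the grey bar for young lamin B1 and both Foxa2 lists and above it for old lamin B1 and old H3K9me3.

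The Foxa2 lists were used to ask whether the keratin loci held binding sites in WT and Zmpste24 KO livers. No keratin gene body overlapped a Foxa2 site in WT (0 of 53, beside 11.1% of all genes) or in Zmpste24 KO livers (0 of 53, beside 14.1%). Keratin bodies are short, with a mean length of 7.51 kb and a median of 6.59 kb. Over all protein-coding genes these were 49.3 kb and 17.6 kb. A shorter body holds fewer sites by construction, and the part of length in these counts was not tested. Within 50 kb of the body, 7 keratin genes had a site in WT (13.2%, beside 32.0% of all genes) and 5 in Zmpste24 KO (9.43%, beside 40.2%), 3 of them in both genotypes (beside 20.2%). Within 50 kb of the gene start the counts were again 7 and 5, beside 25.7% and 32.2% of all genes. Within 10 kb of the body, 2 genes had a site in each genotype (beside 16.6% in WT and 21.0% in Zmpste24 KO), and within 100 kb it was 16 genes in WT (beside 46.1%) and 14 in Zmpste24 KO (beside 56.9%).

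The 7 WT genes shared 2 sites and the 5 Zmpste24 KO genes shared 3. The site near Krt23, a keratin of simple epithelia, was called in both genotypes (chr11:99475008-99475387 in WT, chr11:99474973-99475396 in Zmpste24 KO). It lay 2.59 kb and 2.58 kb from the body of Krt23 at the 3′ end and within 50 kb of Krt20, the intestinal keratin, and Krt39 of the hair shaft. It was the only site inside the chromosome 11 cluster, which gives 0.964 sites per Mb in each genotype beside 2.05 (WT) and 3.36 (Zmpste24 KO) on chromosomes 1 to 19. In livers of the ageing comparison the site lay in an old lamin B1 domain and an old H3K9me3 region and in no young region.

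On chromosome 15 the calls near keratin genes differed between the genotypes. A WT site of 1795 bp, chr15:101959828-101961622, lay between the hepatocyte gene Krt8 and Krt78, the keratin gene next to it. It was 5.54 kb from Krt78, 19.5 kb from Krt79, 35.1 kb from Krt4 and 35.1 kb from Krt8, and no overlapping site was called in Zmpste24 KO. It lay in the old lamin B1 domain that holds Krt8 and Krt18, outside the young one and outside H3K9me3. A Zmpste24 KO site of 1500 bp, chr15:101342462-101343961, lay 3.48 kb from the body of Krt80 with no overlapping WT site. In livers of the ageing comparison its position lay in an old lamin B1 domain and an old H3K9me3 region and in no young region. A further Zmpste24 KO site, at the edge of the 50 kb window on chromosome 11, lay 49.4 kb from Krt42 in the body of Eif1, a translation initiation factor gene.

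Krt18 had no Foxa2 site within 50 kb in either genotype. In WT the site beside Krt78 lay 66.6 kb away. On the other side, in the body of Tns2, a focal adhesion gene, 3 WT sites and 1 Zmpste24 KO site lay 71.8 kb to 76.7 kb from the Krt18 body. The start of Krt8 lay 42.9 kb from its nearest WT site and 99.4 kb from its nearest Zmpste24 KO site. No site within 50 kb was called for Krt7, with its nearest Zmpste24 KO site at 67.1 kb, or for Krt19, with the nearest sites at 182 kb in WT and 171 kb in Zmpste24 KO.

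**Figure D4:**
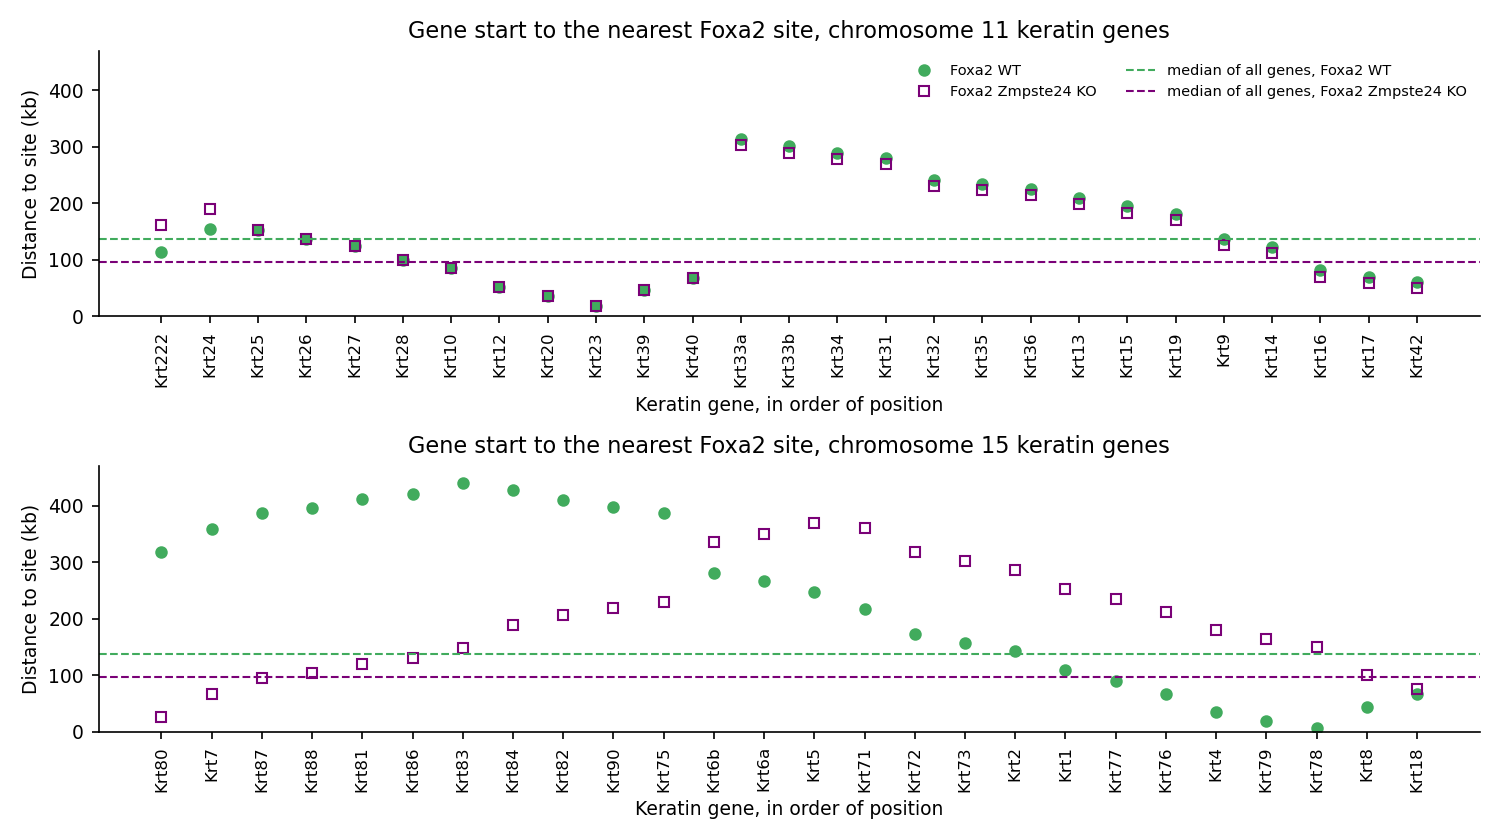
Distance in kb from each keratin gene start to the nearest Foxa2 site in WT (filled circles) and Zmpste24 KO (open squares), with genes in order of position on chromosome 11 (upper panel) and chromosome 15 (lower panel) and dashed lines at the medians over all protein-coding genes, 137 kb in WT and 95.7 kb in Zmpste24 KO. The genotypes lie close together on chromosome 11 and apart on chromosome 15, where a WT site beside Krt78 and a Zmpste24 KO site beside Krt80 were called in 1 genotype only.

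From the gene start, the nearest WT site lay 5.54 kb to 439 kb from keratin genes, with a median of 157 kb beside 137 kb over all genes. The nearest Zmpste24 KO site lay 17.7 kb to 369 kb away, with a median of 164 kb beside 95.7 kb. The shortest distance was that of Krt78 in WT and of Krt23 in Zmpste24 KO. Medians on chromosome 11 were 137 kb in both genotypes, and on chromosome 15 they were 256 kb in WT and 198 kb in Zmpste24 KO. Neighbouring genes share their nearest site, so that the 53 distances come from a few sites.

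Keratin genes are close copies of each other, and only uniquely aligned reads were kept, so the share of 40-base words (the shorter read length of the study) that occur once in the genome was computed. Over keratin gene bodies it ranged from 55.8% to 100% with a median of 97.6%. It was under 80% in 5 genes, at 55.8% in Krt6b, 60.5% in Krt6a, 65.0% in Krt16, 68.5% in Krt81 and 77.8% in Krt86. Krt6b, the gene outside every lamin B1 domain, had the lowest share, and the other 4 genes lay in old lamin B1 domains. Krt8 stood at 85.5%.

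**Figure D5:**
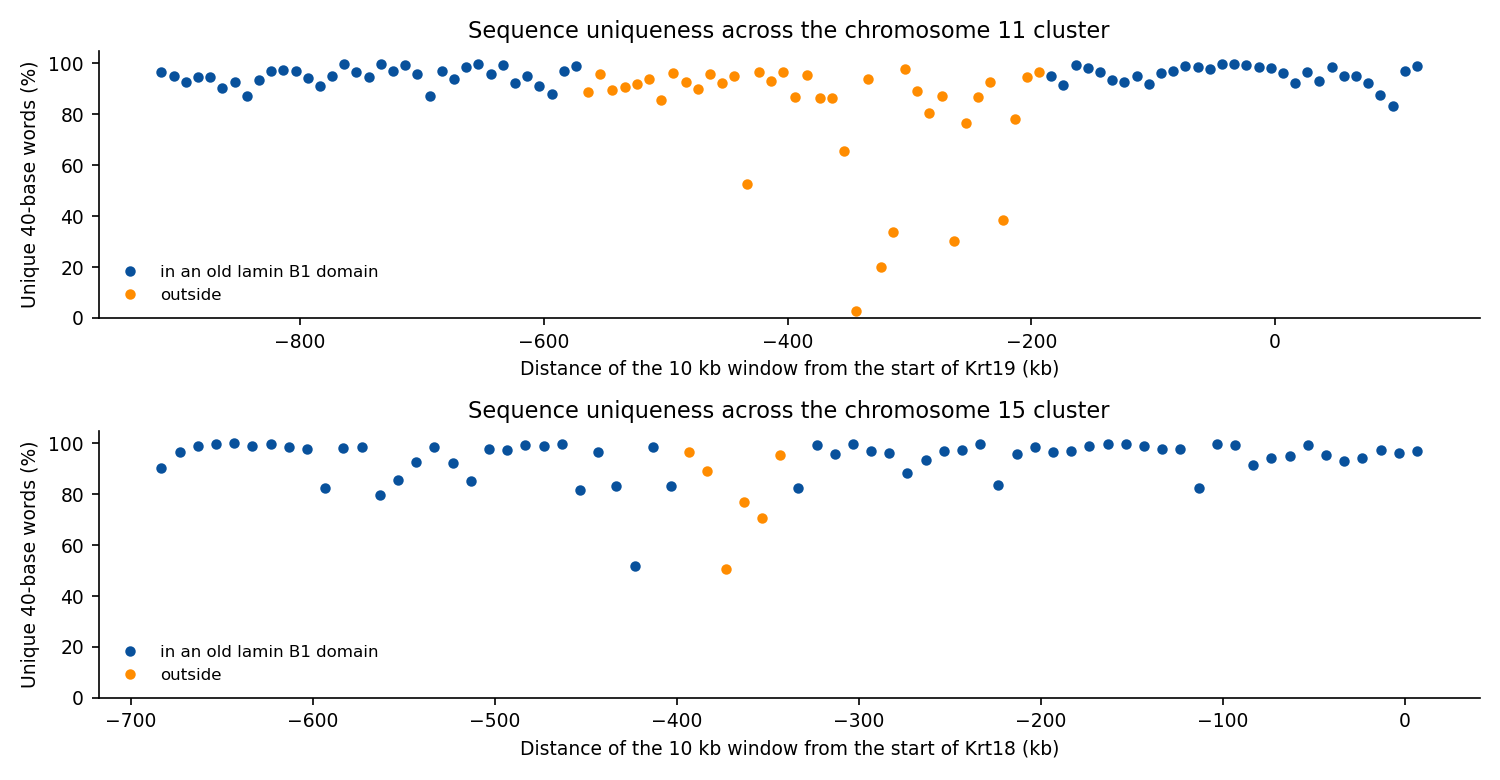
Share of 40-base words that occur once in the genome (vertical axis, percent) in windows of 10 kb along the chromosome 11 (upper panel) and chromosome 15 (lower panel) clusters, against the distance in kb from the start of Krt19 or Krt18, coloured by whether the window lay in an old lamin B1 domain. The lowest windows, down to 2.92%, lie outside the old domains of chromosome 11.

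Windows outside the old lamin B1 domains had lower medians of unique words than windows inside, and for the young domains the order was the opposite. On chromosome 11 the median was 96.0% over 66 windows inside and 89.8% over 38 windows outside, of which the lowest stood at 2.92%. On chromosome 15 it was 97.1% over 64 windows inside and 83.1% over 6 outside. Inside the young lamin B1 domains the medians were 93.4% on chromosome 11 (9 windows) and 96.1% on chromosome 15 (7 windows), below the medians of 95.0% and 96.8% outside them. The part of sequence uniqueness in these calls was not tested. The young lamin B1 libraries held more reads than the old ones, whereas the old H3K9me3 libraries held more reads than the young ones. The old lamin B1 domains were longer, with a median of 340 kb against 200 kb, and covered 930 Mb against 466 Mb. The part of these differences in the keratin counts was not tested.

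Genes that work with keratins were counted from lists drawn up by function. Among 15 other intermediate filament genes, a lamin B1 domain held the start of 3 in young and 13 in old livers, and H3K9me3 that of 0 and 6. Lmnb2, a B-type lamin, Des, the muscle filament gene, Bfsp1, Nefm and Synm had lamin B1 and H3K9me3 in old livers only. Vim, the mesenchymal filament gene, had neither mark at either age. Among 12 genes of desmosomes and other keratin anchors, lamin B1 was called at 3 and 10 and H3K9me3 at 2 and 4. Among 8 genes of proteins that bind or turn over keratins in stressed hepatocytes, lamin B1 was called at 4 and 8 and H3K9me3 at 1 and 1. These lists therefore also had more old than young lamin B1 starts, as all protein-coding genes did (38.0% and 65.7%, with 13.6% and 25.7% for H3K9me3).

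Foxa2 sites were also counted at the anchor genes. Of the 12, 4 had a site in the body in WT and 2 in Zmpste24 KO (beside 11.1% and 14.1% of all genes), and 5 and 6 had a site within 50 kb (beside 32.0% and 40.2%). A body site in 1 genotype only was called for Dst, Evpl and Jup in WT and for Perp in Zmpste24 KO. Within 50 kb, WT and Zmpste24 KO sites numbered 3 and 0 at Dst, 1 and 0 at Evpl, 3 and 2 at Jup and 0 and 2 at Perp. Among the 8 hepatocyte genes, 1 had a body site in WT and 1 in Zmpste24 KO, near the shares of all genes (11.1% and 14.1%). Within 50 kb, 3 and 4 had a site (beside 32.0% and 40.2%). The body site was in WT only at Sqstm1, the autophagy adaptor of keratin inclusions, and in Zmpste24 KO only at Rchy1, a ubiquitin ligase gene. Within 50 kb, however, Sqstm1 had 3 sites in each genotype, and Rchy1 had 0 in WT and 2 in Zmpste24 KO.

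Marker genes of hepatocytes and bile duct cells were counted in the same lists, which cannot show which cells were present. Of 6 hepatocyte genes, a Foxa2 site lay within 50 kb of 5 in WT and 4 in Zmpste24 KO (beside 32.0% and 40.2% of all genes). The body held a site in 3 and 4 (beside 11.1% and 14.1%), among them Hnf4a, Pck1 and Tat in both. No site within 50 kb was called for Serpina1a in either genotype. Of 6 bile duct genes, Krt7 and Krt19 included, 2 and 1 had a site within 50 kb. Lamin B1 held the start of 2 hepatocyte genes in young and 4 in old livers and of 2 and 4 bile duct genes. The shares of all genes were 38.0% and 65.7%. H3K9me3 held the start of 0 and 1 hepatocyte genes and of 2 and 3 bile duct genes, beside 13.6% and 25.7% of all genes.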

How the data were processed

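ChIP-Seq libraries for lamin B1 and H3K9me3 from young and old livers (2 replicates for each antibody and age) and for Foxa2 from WT and Zmpste24 KO livers (3 replicates per genotype) were used as 6 deposited lists. The deposited lists hold region positions on mm10, with no signal, score, count or value per replicate, and the depth of a single list is not in them. Per the study's methods, the authors used BWA 0.7.12 for alignment and Picard 1.134 against duplicates, retained reads with a unique alignment, and pooled the replicates of a group. Lamin B1 domains were called with Epic, a version of SICER, in windows of 10 kb with gaps allowed between windows. A gene inside a domain therefore need not hold an enriched window of its own. Foxa2 sites were called with PeakSeq against input after reads of the Zmpste24 KO libraries had been downsampled to those of WT. The caller of the H3K9me3 regions is not given in the sources used here. Each list was matched to its group by name. For H3K9me3 the name was the only source, and the lists held fewer regions than the study counts, so those calls carry an added doubt. H3K9me2 was not analysed here.

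Lamin B1 young, lamin B1 old, H3K9me3 young and H3K9me3 old lists held 1624, 1519, 2784 and 2496 regions, the WT and Zmpste24 KO lists 4960 and 8177. Gene records came from the GENCODE annotation of mm10 and sequence from GRCm38.p6. A gene start counted when the 5′ end of the gene record lay in a region, and a Foxa2 site when at least 1 bp lay within 50 kb of the gene body. Shares over all 20807 protein-coding genes stand beside the counts over the 53 members, and serve for the smaller lists too. No test was run, because merged lists have no replicate spread. The overlap code was tested on simulated data. Members, gene lists and roles were chosen with earlier results of these data known, and the role of Krt88 was set as not assigned after the files were read.

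Genes named with values were Krt8, Krt18, Krt7 and Krt19, the first and last gene of each cluster, genes with a Foxa2 site within 10 kb, the genes with the shortest distance to a site, and, where more than 10 genes had a call at 1 age only, the 3 with the largest difference in body coverage, with ties taken by position. Krt222, Krt24, Krt25, Krt40, Krt6a, Krt6b and the genes of low sequence uniqueness were named in addition, after their values were seen. The same holds for genes of the lists drawn up by function that are named for their lamin B1 or H3K9me3 calls. Alternatives changed the part of the gene that had to be covered, the start used, the smallest domain, the window around the gene and the set of Foxa2 sites. Computations used Python 3.11.15, numpy 2.4.6, pandas 2.3.3, pysam 0.24.0 and matplotlib 3.10.9.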

Additional observations from a re-analysis of the deposited data

How the results depend on the processing

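Of 52 alternative values, 38 stayed within 1.5 times the count reported, or, for a covered share, within its 95% binomial interval over windows of 10 kb, and 14 moved, all of them counts of genes with Foxa2 sites or of sites. Counts of keratin starts in lamin B1 and H3K9me3 regions stayed within 1 gene of the value reported under every alternative run. With 50 kb added on each side, the share of the clusters in young lamin B1 domains was 13.2% on chromosome 11 and 14.3% on chromosome 15, in place of 8.41% and 9.06%. Each is over 1.5 times the value reported, and the interval treats neighbouring windows of the same domain as independent, so it is no sign of stability. The 7 WT genes with a Foxa2 site within 50 kb became 0 with the gene body alone, 2 within 10 kb, 16 within 100 kb (beside 46.1% of all genes), 2 when a site counted for the closest start only and 4 with sites of at least the median width. The 5 Zmpste24 KO genes became 0, 2, 14 (beside 56.9% of all genes), 2 and 1. WT sites near Krt8 went from 1 to 0 within 10 kb, and Zmpste24 KO sites from 0 to 1 within 100 kb. Sites near Krt18 went from 0 to 4 in WT and from 0 to 1 in Zmpste24 KO within 100 kb. A window or set of sites that is smaller or larger holds fewer or more sites by construction. Counting within 50 kb of the gene start, an alternative chosen after seeing the data, gave 7 and 5. No paired analysis was possible because the lists merge the replicates, and for the same reason no replicate could be left out. A stricter threshold could not be set without scores, so the width of sites was used in its place.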

Other observations

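Krtap genes, which encode the matrix proteins of hair, share the chromosome 11 cluster with the keratins and had fewer old calls. Of 23 Krtap genes on chromosome 11, 0 had their start in a young and 6 in an old lamin B1 domain, and 0 and 5 in an H3K9me3 region, beside 2 and 27 and 4 and 25 of the 27 keratin genes there. The shares of all protein-coding genes were 38.0% and 65.7% for lamin B1 and 13.6% and 25.7% for H3K9me3. The old H3K9me3 count of the Krtap genes thus lay near the share of all genes. In the gap of 380 kb without an old lamin B1 domain lay 17 of the 23, in the stretch where 40-base words are least unique, and the part of that in the calls was not tested. None of the 23 lay within 50 kb of a Foxa2 site in either genotype (beside 32.0% of all genes in WT and 40.2% in Zmpste24 KO). On chromosome 16, 11 of 24 Krtap genes lay within 50 kb of a Zmpste24 KO site, beside 40.2% of all genes. Within 50 kb of a WT site lay 1 of the 24, beside 32.0%. Neighbouring genes can share a site, so these counts are not independent. In a young and an old lamin B1 domain lay 0 and 1 of the 24, beside 38.0% and 65.7% of all genes. On chromosomes 7, 10 and 1 an old lamin B1 domain held the start of 5 of 5, 3 of 3 and 0 of 2 Krtap genes.

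Cornified envelope genes, which encode the proteins cross-linked with keratins in the outer epidermis, were counted in the same lists. Of 15 such genes, the start of 3 lay in a young and of 2 in an old lamin B1 domain, and that of 4 and 0 in an H3K9me3 region, beside 38.0%, 65.7%, 13.6% and 25.7% of all protein-coding genes. On chromosome 3 lay 12 of the 15, so that their calls share domains. Lor, Rptn and Tchh lay in a young lamin B1 domain only, Cnfn and Tgm1 in an old one only, and 10 at neither age. Within 50 kb of the body, 1 of the 15 had a Foxa2 site in WT and 3 in Zmpste24 KO, beside 32.0% and 40.2% of all genes. The pseudogene Krt74 (chr15:101754259-101763504), among the inner root sheath keratins of chromosome 15, had its start in both marks in old livers and in neither in young livers.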
